A study of Schizosaccharomyces pombe with 12 samples.

Results

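Transcript levels of a wild-type fission yeast (Schizosaccharomyces pombe) of mating type h- were set against those of a wild type of mating type h+, in 6 of the 12 libraries of the series. The h- libraries (wt_WT, n = 3) come from cells labelled h- leu1-32 ura4-D18 ade6-704. The h+ libraries (ntu_WT, n = 3) come from cells labelled h+ leu1-32 ura4-D18 ade6-M210. The labels give both wild types the strain name SPB4507 although these genotypes differ. Samples were assigned to groups by their titles. The other 6 libraries are h+ cells lacking ntu1 (ntu1_KO, n = 3) or ntu2 (ntu2_KO, n = 3), each with a kanMX marker at the deleted gene, ade6-M216, leu1-32 and ura4-D18. They entered the fit to share its estimate of the spread between libraries and are otherwise given beside the wild types as values. All 12 cultures grew exponentially at 30 °C in YES, a rich medium, and poly(A)-selected stranded libraries were made from 300 ng of total RNA. Mating type, ade6 allele, sequencing depth and any batch of library preparation change together between the wild types and cannot be told apart in any result below. Nothing in the labels says that replicates came from separate cultures, so the p-values measure the spread between these libraries, which may be technical.

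Fission yeast mates as M cells (h-) and P cells (h+), whose identity is set by the gene cassette at the mat1 locus. Each type secretes a pheromone and carries a receptor for the other type's pheromone, and the transcription factor Ste11 switches on mating genes when nitrogen runs short. Phosphate, copper and iron supply are each watched by dedicated regulators: Pho7 activates phosphate uptake genes, Cuf1 activates copper uptake genes when copper is scarce, and Fep1 represses iron uptake genes when iron is plentiful.

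Library totals were 11308010, 11422370 and 11782294 estimated counts in wt_WT, against 5998569, 7556338 and 7265948 in ntu_WT. Ribosomal RNA took 0.371% to 0.699% of counts in wt_WT and 2.40% to 2.67% in ntu_WT, and long non-coding RNA took 1.51% to 1.59% in wt_WT and 1.49% to 1.54% in ntu_WT. One library stood apart within its group. In ntu_WT replicate 1, 23 genes lay at least 2-fold above both other ntu_WT libraries, against 0 to 6 genes in each of the other 5 libraries, counted over genes with a mean of at least 2 CPM in the group. Among the 23 were fbp1 and inv1, for fructose-1,6-bisphosphatase and invertase, which glucose represses. The level of fbp1 was 4.18, 4.31 and 4.98 CPM in wt_WT, against 39.8, 5.18 and 5.86 CPM in ntu_WT, and that of inv1 was 4.18, 3.53 and 3.82 CPM in wt_WT, against 35.2, 7.04 and 5.58 CPM in ntu_WT. Values are counts per 1e+06 counts on TMM-scaled library sizes (CPM). The sources used here do not say whether counting used the strand of a read, so reads of genes that overlap on opposite strands may not be separated.

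Of 7 mitochondrially encoded genes tested, 0 were called higher and 2 lower in wt_WT, with a median log2 fold change of -3.13 over the 7. Mitochondrial messenger RNA took only 0.000274% to 0.000455% of counts in wt_WT and 0.00205% to 0.00257% in ntu_WT. Few counts therefore lie behind these values. The 2 calls were weak: cox2 lost its call without any 1 of the 6 libraries (adjusted p 0.0678 to 0.137), cob1 without wt_WT replicate 1 or 3 or ntu_WT replicate 2 (adjusted p up to 0.0752), and both on log2(TPM + 1). Of 6 ribosomal RNA genes tested under ribosomal identifiers, 0 were called, with a median of -2.48. This list and the mitochondrial list have the same lowest log2 fold change, -3.26305, so their members overlap. A further entry, 5S_rRNA, was called lower, at -2.97 ± 0.78 (SE, edgeR adjusted p = 0.0225). The 5S_rRNA call rested on 6 counts over the wt_WT libraries and 30 over the ntu_WT libraries. That call was lost on log2(TPM + 1) and without wt_WT replicate 1 or 3 or ntu_WT replicate 2 (adjusted p up to 0.130). The part of these RNAs in other results was not tested directly. Leaving out ribosomal, small nucleolar and mitochondrial genes, found by identifier or annotated type, and refitting gave 501 called genes in place of the 486 described next. That step did not take out 5S_rRNA or the small nucleolar snosnR61, also called lower (-3.70 ± 0.78, edgeR adjusted p = 0.0101). The snosnR61 call rested on 8 counts over wt_WT and 64 over ntu_WT. Both entries had 0 CPM in wt_WT replicates 1 and 3, so the size of these changes is poorly known.

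Of the 5899 genes tested, 486 (8.24%) differed between wt_WT and ntu_WT at an edgeR adjusted p under 0.05. In wt_WT, 239 were higher (4.05%) and 247 lower (4.19%). Most of these differences were small. A change of under 2-fold was found for 425 of the 486 genes (202 higher, 223 lower), and of under 1.5-fold for 346 (157 higher, 189 lower). At 2-fold or more, 61 genes remained (1.03%), 37 higher (0.627%) and 24 lower (0.407%). The median size of a called change was 0.37 on the log2 scale, the smallest was 0.17, and the median log2 fold change of all genes tested was 0.00. In 485 of the 486 genes the 3 wt_WT values did not overlap the 3 ntu_WT values, while 2083 of all genes tested (35.3%) had such separated values. The balance between directions depended on the unit: limma on log2(TPM + 1) called 339 genes higher and 77 lower, a scale on which the median of all genes was shifted by 0.09. The number of calls also depended on single libraries. It fell to 286, 227 and 248 without wt_WT replicate 1, 2 and 3, and to 433, 251 and 280 without ntu_WT replicate 1, 2 and 3.

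**Figure D1:**
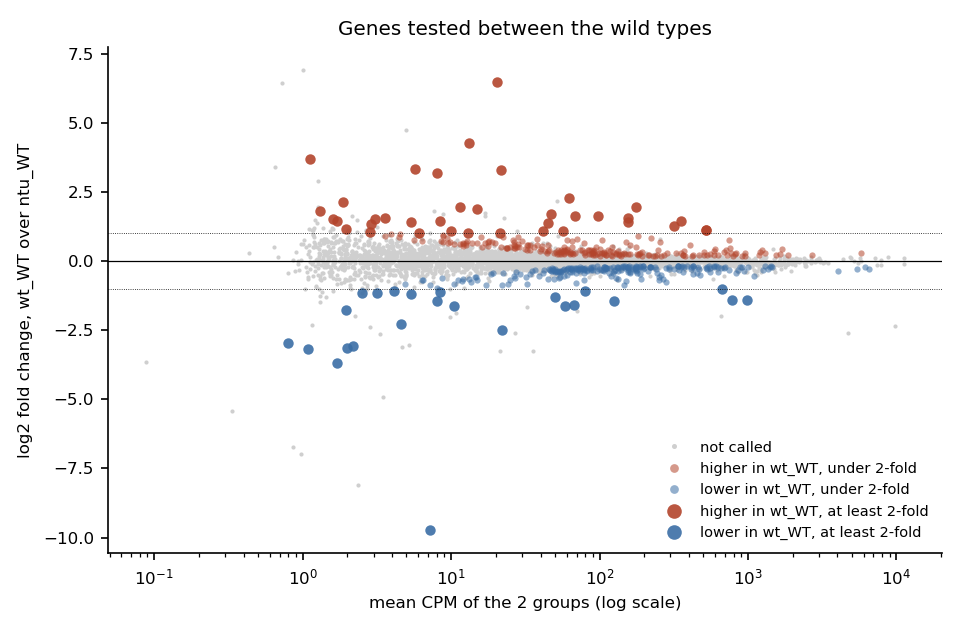
Log2 fold change, wt_WT over ntu_WT, of the 5899 genes tested against their mean CPM in the 2 groups (log scale); coloured points are the 486 called genes and dotted lines mark 2-fold. The 425 smaller changes form a band along both edges of the uncalled genes, and the 61 larger ones scatter above and below it.

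Genes were then read by function. Called members lay on 1 side only in several lists, among them amino acid synthesis (13 higher, 0 lower of 48 tested), iron and zinc (8 and 0 of 20), uracil and pyrimidine (5 and 0 of 12), methionine and sulfur (5 and 0 of 19), aminoacyl-tRNA ligases (4 and 0 of 32), histones (0 and 6 of 11), glycolysis (0 and 5 of 17) and oxidant defence (0 and 5 of 19). Phosphate genes were called mostly lower (1 higher, 12 lower of 24) and copper genes mostly higher (5 higher, 1 lower of 13). Mitochondrial ribosomal protein genes (0 and 6 of 64), core environmental stress genes (0 and 4 of 29) and V-ATPase genes (0 and 2 of 16) were also called lower only. Of these, the ribosomal mrpl16, mrpl19 and mrpl23 and the V-ATPase vma3 and vma10 lost their calls on log2(TPM + 1). They also lost them in 4 or 5 of 6 fits with 1 library left out. Taking out a length trend ended the calls of mrpl19, mrpl23 and vma3. Lists share members: sod1 and trr1 are lower calls of both the stress and the oxidant defence list, and sod1 is the lower copper gene. Over all genes tested, 4.05% were higher and 4.19% lower.

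**Figure D2:**
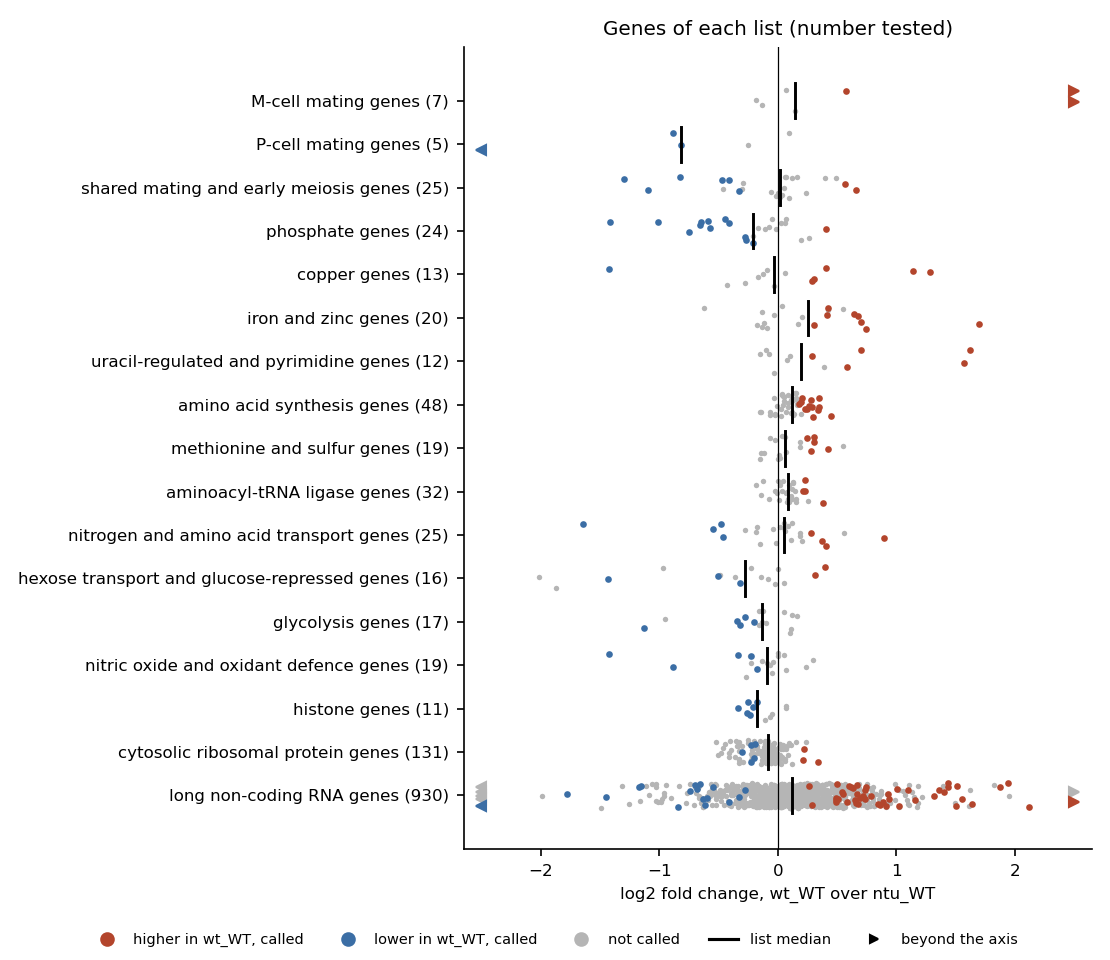
Log2 fold change, wt_WT over ntu_WT, of every tested member of 17 lists, with called members coloured and list medians as black bars; arrowheads lie beyond the axis. Called members of the phosphate list sit left of 0 except pho843, and those of the amino acid synthesis, iron and pyrimidine lists sit right of 0.

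Mating genes followed the labelled mating types in the genes that define them and were uneven elsewhere. Of 11 M-cell genes 7 were tested, and 3 were higher in wt_WT and 0 lower; of 6 P-cell genes 5 were tested, and 0 were higher and 3 lower. The cassette genes mat1-Mc and mat2-Pc, for the M- and P-specific regulators, checked the labels. The mat1-Mc gene had 43.1, 40.1 and 37.9 CPM in wt_WT, against 0, 0 and 1.26 CPM in ntu_WT, although every stretch of 31 bases in it is repeated elsewhere in the genome, and its call was lost with DESeq2 and with a replicate block. No count of mat2-Pc was found in wt_WT, which allows up to 0.0848 CPM over the group, against 14.4 ± 0.428 CPM in ntu_WT (SD, n = 3). The level in wt_WT was therefore at least 170-fold lower. This limit covers counting error only.

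Pheromone genes came next. The M-factor precursor gene mfm2 had 29.5, 21.4 and 24.7 CPM in wt_WT, against 1.19, 0.929 and 1.81 CPM in ntu_WT. The groups lay far apart, with a log2 fold change of 4.25 ± 0.24 (SE; edgeR adjusted p = 8.54e-10). The other M-factor precursor genes, mfm1 and mfm3, had too few counts to be tested. The transporter that exports M-factor, mam1, had 45.8, 42.4 and 48.2 CPM in wt_WT, against 30.1, 31.5 and 29.9 CPM in ntu_WT, a log2 fold change of 0.58 ± 0.11 (SE; edgeR adjusted p = 0.00232). Counts of mam1 were thus found in both mating types, with every h- library above every h+ library. Another gene, hbs1, overlaps mam1 on the opposite strand. Counting may not separate the strands, so presence of the mam1 transcript in h+ cells is not shown. Receptors differed in 1 of 2 cases. The gene map3, for the P-cell receptor of M-factor, had 15.5, 17.5 and 13.5 CPM in wt_WT, against 28.1, 27.5 and 30.1 CPM in ntu_WT, a log2 fold change of -0.88 ± 0.13 (SE; edgeR adjusted p = 1.33e-04). Its counterpart mam2, for the M-cell receptor of P-factor, had 3.50, 3.10 and 3.16 CPM in wt_WT, against 3.73, 1.99 and 3.21 CPM in ntu_WT, with overlapping groups (edgeR adjusted p = 0.827). The MADS-box factor gene map1, needed for P-cell gene expression, had 8.20, 6.98 and 7.47 CPM in wt_WT, against 14.1, 11.5 and 14.4 CPM in ntu_WT, a log2 fold change of -0.82 ± 0.17 (SE; edgeR adjusted p = 0.00561). In the h+ knockouts, map1 averaged 10.5 ± 1.47 CPM in ntu1_KO and 7.48 ± 1.44 CPM in ntu2_KO (SD, n = 3 each). The ntu2_KO mean was close to the 7.55 CPM of wt_WT, so a low map1 level was not particular to h- libraries. The remaining M-cell genes mam3, mam4 and sxa2 (an M-cell protease that degrades P-factor) and P-cell genes map2 (P-factor) and map4 (a cell surface adhesin) did not pass the test, at -0.18, -0.13, 0.07, -0.25 and 0.10 on the log2 scale.

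Genes that both mating types use in mating and early meiosis were called in 8 of 25 tested cases, 2 higher and 6 lower, with a median of 0.02 over the list. Without wt_WT replicate 1 the list had 3 lower calls. The ste11 gene (SPBC32C12.02, chromosome II), for the central activator of mating, had 52.7, 47.3 and 51.5 CPM in wt_WT, against 116, 105 and 103 CPM in ntu_WT, a log2 fold change of -1.09 ± 0.16 (SE; edgeR adjusted p = 0.00177). Levels in wt_WT were less than those of any ntu_WT library, and the gene was called under all 18 other settings tried. The non-coding RNA rse1, annotated as acting in cis to repress ste11, had 91.97, 87.4 and 93.99 CPM in wt_WT, against 118, 111 and 114 CPM in ntu_WT, a log2 fold change of -0.33 ± 0.07 (SE; edgeR adjusted p = 0.00892). The RNA and its annotated target were thus both lower in wt_WT. The RNA-binding protein gene mei2, required to enter meiosis, had 27.5, 28.5 and 31.2 CPM in wt_WT, against 80.3, 68.9 and 65.9 CPM in ntu_WT, a log2 fold change of -1.30 ± 0.27 (SE; edgeR adjusted p = 0.0217). That call was lost with any 1 of the 6 libraries left out (adjusted p 0.0594 to 0.0855).

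Several pheromone signalling genes were lower in wt_WT. The MAP kinase gene spk1 had 24.2, 23.02 and 23.2 CPM in wt_WT, against 44.03, 40.9 and 40.2 CPM in ntu_WT, a log2 fold change of -0.83 ± 0.11 (SE; edgeR adjusted p = 8.93e-05). The G-protein alpha subunit gene gpa1 had 41.2, 47.2 and 49.6 CPM in wt_WT, against 65.03, 62.4 and 56.5 CPM in ntu_WT, a log2 fold change of -0.41 ± 0.09 (SE; edgeR adjusted p = 0.00757). The gene rgs1, for a regulator of G-protein signalling, had 24.00 to 25.3 CPM in wt_WT and 32.3 to 35.2 CPM in ntu_WT, at -0.47 ± 0.11 (SE; edgeR adjusted p = 0.0123). The spk1 call held with any 1 library left out, whereas that of gpa1 was lost without wt_WT replicate 1 (adjusted p = 0.0513), that of rse1 without wt_WT replicate 2 (adjusted p = 0.0614) and that of rgs1 without wt_WT replicate 1 or 3 or ntu_WT replicate 2 or 3 (adjusted p up to 0.0560). In the opposite direction stood the Ras activator gene ste6, with 14.4, 14.5 and 15.9 CPM in wt_WT, against 11.9, 8.36 and 10.2 CPM in ntu_WT and a log2 fold change of 0.57 ± 0.17 (SE; edgeR adjusted p = 0.0475). That call was lost in 5 of 6 cases with 1 library left out, all but ntu_WT replicate 1 (adjusted p up to 0.228). The non-coding RNA nam1, annotated as repressing byr2 in cis, had 22.5, 25.5 and 24.6 CPM in wt_WT, against 17.1, 15 and 13.96 CPM in ntu_WT, a log2 fold change of 0.66 ± 0.13 (SE; edgeR adjusted p = 0.00381). Its annotated target byr2, for the MAP kinase kinase kinase of the pathway, was not called, at 0.40 ± 0.14 (adjusted p = 0.0806). The pathway's MAP kinase kinase gene byr1, at -0.30 ± 0.09 (adjusted p = 0.0556), and the cell fusion gene fus1, at 0.24 ± 0.13, were not called either. Without ntu_WT replicate 1 both byr2 and byr1 passed the test, with adjusted p = 0.00993 for byr2 and 0.0451 for byr1.

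**Figure D3:**
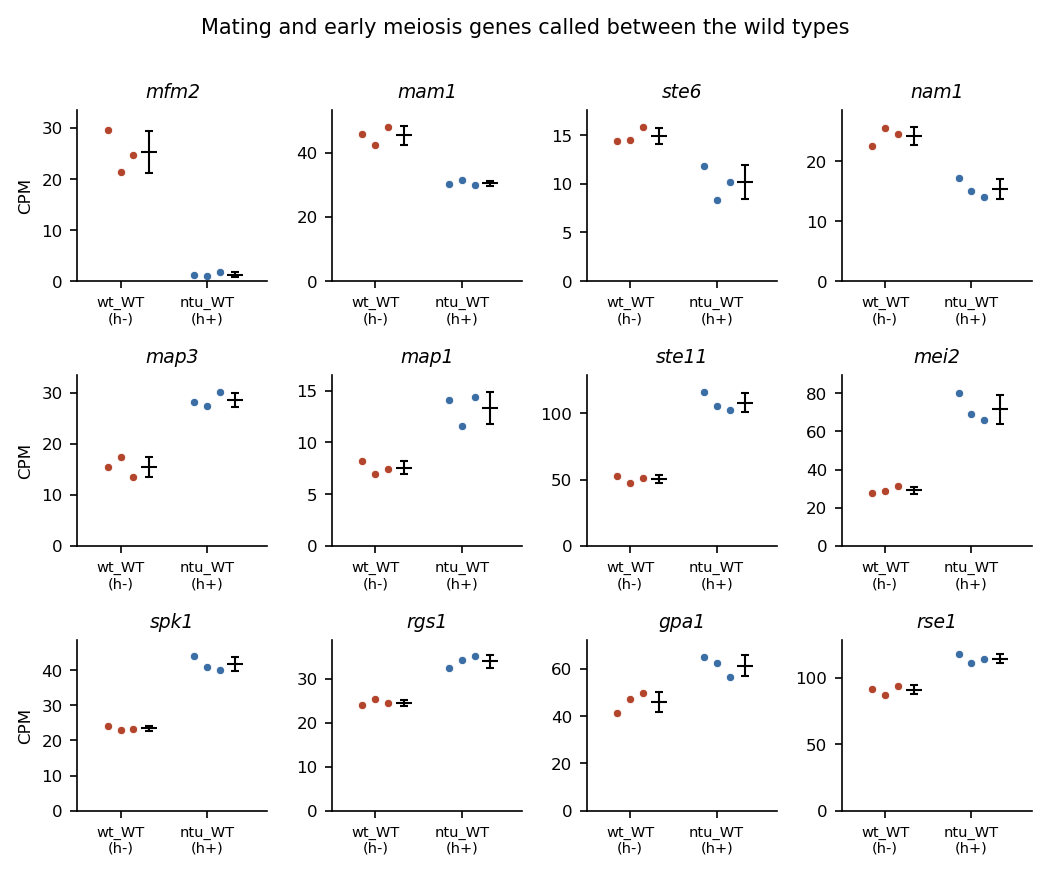
CPM in each library (points), with mean and SD (bars), for 12 of the 14 mating and early meiosis genes called; the axes start at 0. The 3 wt_WT values lie above the 3 ntu_WT values for mfm2, mam1, ste6 and nam1 and below them for the other 8 genes.

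Genes next to mat1 were called more often than the share over all genes. Within 50 kb of mat1-Mc in the ASM294v3 annotation, 51 genes were tested, and 10 were higher and 1 lower in wt_WT (21.6% called, against 8.24% overall). They include the flavin oxidoreductase gene SPBC23G7.10c, with 38.00 to 39.8 CPM in wt_WT and 3.07 to 4.65 CPM in ntu_WT, and an RNA antisense to mag2, a DNA glycosylase gene, with 16.9 to 20.3 CPM in wt_WT and 4.064 to 5.04 CPM in ntu_WT. More modest differences were found for the vacuolar copper transporter gene ctr6 (0.41 ± 0.07), the proteasome subunit gene rpt6 (0.23 ± 0.06) and the uncharacterized SPBC23G7.14 (0.38 ± 0.09). The GTPase-activating protein gene rga7 was the exception, lower at -0.31 ± 0.07. Calls were lost for SPBC23G7.10c without wt_WT replicate 2 or 3 or ntu_WT replicate 2 or 3 (adjusted p up to 0.0556), for rpt6 without wt_WT replicate 2 or 3 or ntu_WT replicate 1 (up to 0.0721), for SPBC23G7.14 without wt_WT replicate 1 or ntu_WT replicate 3 (up to 0.0669) and for rga7 without wt_WT replicate 1 (0.0513). Around the other genotype markers the shares were 13.0% within 50 kb of ade6 (6 of 46 genes) and 8.89% within 50 kb of leu1 (4 of 45). The called genes around mat1-Mc and ade6 include mat1-Mc and ade6 themselves. Those around mat1-Mc also include SPNCRNA.389, in which every stretch of 31 bases is repeated elsewhere. These windows were chosen after values had been seen.

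The auxotrophic markers were also compared. The level of a transcript does not show which allele it carries. Only ura4, labelled as removed in both strains, could be checked, and it does not tell the strains apart. The purine synthesis gene ade6, which carries different alleles in the 2 strains, had 148, 156 and 165 CPM in wt_WT, against 202, 188 and 195 CPM in ntu_WT, a log2 fold change of -0.32 ± 0.05 (SE; edgeR adjusted p = 7.58e-04). The other purine genes showed no common direction: of 12 tested, ade10 was higher by 0.22 ± 0.05 (edgeR adjusted p = 0.00896) and the remaining 10 were not called. The ade10 call was lost without wt_WT replicate 2 or 3 or ntu_WT replicate 2 (adjusted p up to 0.0592). The leu1 transcript, mutated in both strains, was at 689 ± 25.2 CPM in wt_WT and 677 ± 23.3 CPM in ntu_WT (SD, n = 3 each; adjusted p = 0.841). No count of ura4, the gene that ura4-D18 removes, was found in either group.

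Phosphate genes were lower in wt_WT at each layer of the pathway: the secreted phosphatase, the uptake transporters and the polyphosphate store. Of 24 genes tested, 12 were lower and 1 higher, and the median log2 fold change was -0.21. The secreted acid phosphatase gene pho1 had 417, 419 and 443 CPM in wt_WT, against 1167, 1189.8 and 1049 CPM in ntu_WT, a log2 fold change of -1.41 ± 0.12 (SE; edgeR adjusted p = 4.29e-05). The transporter gene pho84 had 461, 444 and 416 CPM in wt_WT, against 904, 937 and 816 CPM in ntu_WT, a log2 fold change of -1.01 ± 0.06 (SE; edgeR adjusted p = 2.28e-09). These are the only 2 phosphate genes called at 2-fold or more, and neither overlapped between groups. The paralog pho842 had 203, 216 and 209 CPM in wt_WT, against 351, 339 and 363 CPM in ntu_WT, at -0.75 ± 0.10 (SE; edgeR adjusted p = 7.82e-04). The paralog pho841 had 207, 208 and 214 CPM in wt_WT, against 326, 342 and 320.0 CPM in ntu_WT, at -0.65 ± 0.05 (SE; edgeR adjusted p = 3.09e-08). A further annotated phosphate transporter, SPBC1703.13c, was lower by a smaller step, with 523 to 546 CPM in wt_WT and 688 to 727 CPM in ntu_WT and a log2 fold change of -0.41 ± 0.06 (SE; edgeR adjusted p = 2.74e-04). The exception was the transporter gene pho843, with 99.7, 94.1 and 96.6 CPM in wt_WT, against 76.4, 67.8 and 75.5 CPM in ntu_WT and a log2 fold change of 0.40 ± 0.08 (SE; edgeR adjusted p = 0.00351), so that 1 of the annotated phosphate transporters was higher. Small parts of pho84 and pho841 are repeated elsewhere (7.83% and 7.22% of their stretches of 31 bases).

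Polyphosphate is stored in the vacuole by the VTC complex. Its genes nrf1, vtc4 and vtc2 were lower in wt_WT. The nrf1 gene had 197, 200.3 and 204 CPM in wt_WT, against 289.8, 309.5 and 306 CPM in ntu_WT, a log2 fold change of -0.59 ± 0.07 (SE; edgeR adjusted p = 3.99e-05). For vtc4, the polymerase subunit, it was -0.44 ± 0.06 (SE; edgeR adjusted p = 4.05e-05), with 151 to 154 CPM in wt_WT and 198 to 217 CPM in ntu_WT. For vtc2 it was -0.27 ± 0.05 (SE; edgeR adjusted p = 0.00147), a change that was not called on log2(TPM + 1). The glycerophosphodiester transporter gene tgp1, a further gene of the phosphate regulon, had 9.99, 11.6 and 13.04 CPM in wt_WT, against 17.3, 18.3 and 16.1 CPM in ntu_WT, a log2 fold change of -0.57 ± 0.15 (SE; edgeR adjusted p = 0.0245). Its call was lost without replicate 1 or 2 of either group (adjusted p up to 0.124). Beside these stood duf89, annotated as a metal-dependent phosphatase, with 35.01, 33.4 and 36.5 CPM in wt_WT, against 57.1, 53.2 and 54.8 CPM in ntu_WT and a log2 fold change of -0.65 ± 0.09 (SE; edgeR adjusted p = 8.03e-05).

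Regulators of the phosphate response were mostly not called. The activator gene pho7 had 87.1, 93.4 and 97.1 CPM in wt_WT, against 95.7, 85.3 and 85.6 CPM in ntu_WT, a log2 fold change of 0.06 ± 0.07 (SE; edgeR adjusted p = 0.646). The kinase gene csk1 (-0.21 ± 0.13, adjusted p = 0.336) and the ubiquitin ligase gene pqr1 (-0.11 ± 0.06, adjusted p = 0.261) were not called. Inositol pyrophosphates signal phosphate status, and the genes of the enzymes that make and break them, asp1 and aps1, were slightly lower, at -0.27 ± 0.06 (SE; edgeR adjusted p = 0.0123) and -0.21 ± 0.06 (SE; edgeR adjusted p = 0.0263). The calls depended on single libraries: that of aps1 was lost with any 1 of the 6 libraries left out (adjusted p 0.0526 to 0.111), and that of asp1 without replicate 2 of either group (adjusted p up to 0.0633). The non-coding RNA prt2 (SPBC8E4.02c), annotated as repressing pho84, had 33.9, 31.6 and 32.2 CPM in wt_WT, against 24.7, 27.2 and 29.4 CPM in ntu_WT. It lay higher in wt_WT without overlap, but the difference was not called (0.26 ± 0.12, adjusted p = 0.213). The acid phosphatase genes SPBC4.06 and SPBP8B7.31 and the glycerophosphodiesterase gene gde1 were not called, at 0.07, -0.05 and -0.02 on the log2 scale.

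**Figure D4:**
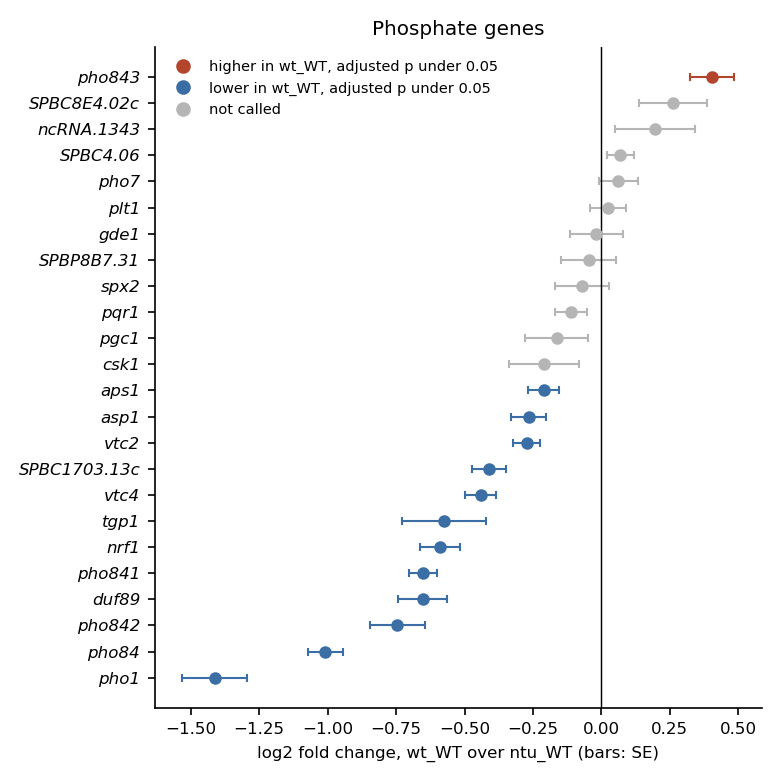
Log2 fold change, wt_WT over ntu_WT, with SE, of the 24 phosphate genes. The 12 genes called lower run from pho1 (-1.41) to aps1 (-0.21), pho843 is called higher (0.40), and pho7 lies near 0 (0.06).

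The pho84 gene and 3 further called genes lie within 50 kb of pho1 on chromosome II in ASM294v3, a window in which 5 of 36 genes tested were called (13.9%), each of them lower in wt_WT. The neighbours are SPBPB2B2.06c, annotated as a phosphoprotein phosphatase, ecl3, a member of a family of lifespan extension genes, and the galactose gene gal10. SPBPB2B2.06c had 5.47, 5.95 and 8.30 CPM in wt_WT, against 46.4, 38.6 and 26.8 CPM in ntu_WT, a log2 fold change of -2.49 ± 0.42 (SE; edgeR adjusted p = 0.00856). The ecl3 gene had 1.03 to 2.05 CPM in wt_WT and 7.12 to 8.36 CPM in ntu_WT, at -2.29 ± 0.29 (SE; edgeR adjusted p = 3.57e-05). The gal10 call was lost without any wt_WT library or without ntu_WT replicate 1 or 2 (adjusted p up to 0.144).

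Copper uptake genes were higher in wt_WT and the main copper enzyme gene was lower. Of 13 genes tested, 5 were higher and 1 lower, and the list median was -0.03. The 5 higher calls fell to 3 without any 1 library other than ntu_WT replicate 2. The plasma membrane copper transporter is built from Ctr4 and Ctr5. The ctr4 gene had 737, 726 and 697 CPM in wt_WT, against 347, 332 and 302 CPM in ntu_WT, a log2 fold change of 1.14 ± 0.24 (SE; edgeR adjusted p = 0.0248). The ctr5 gene had 487, 431 and 425 CPM in wt_WT, against 188, 185 and 178 CPM in ntu_WT, a log2 fold change of 1.28 ± 0.22 (SE; edgeR adjusted p = 0.0109). Every wt_WT library was above 2 times any ntu_WT library in both transcripts. The calls were less secure than these values look: ctr4 lost its call with any 1 of the 6 libraries left out (adjusted p 0.0591 to 0.0968), whereas ctr5 kept it (adjusted p 0.0349 to 0.0495). The vacuolar copper transporter gene ctr6 had 100.4, 97.2 and 102 CPM in wt_WT, against 76.2, 72.6 and 77.2 CPM in ntu_WT, a log2 fold change of 0.41 ± 0.07 (SE; edgeR adjusted p = 7.82e-04). Smaller increases were found for the copper-exporting ATPase gene ccc2, by 0.28 ± 0.08, and the copper amine oxidase gene cao1, by 0.30 ± 0.07 (edgeR adjusted p = 0.0245 and 0.00617), of which ccc2 lost its call without any wt_WT library or without ntu_WT replicate 1 or 3 (adjusted p up to 0.130).

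The superoxide dismutase gene sod1, whose product holds copper and zinc, had 518, 542 and 549.6 CPM in wt_WT, against 1427, 1392 and 1489.7 CPM in ntu_WT. At -1.42 ± 0.15 (SE; edgeR adjusted p = 4.23e-04) on the log2 scale, it went the opposite way to the transporters. The copper sensor gene cuf1 (-0.09 ± 0.08, adjusted p = 0.505), the copper chaperone genes ccs1 (-0.03 ± 0.08, adjusted p = 0.827) and atx1 (-0.13 ± 0.07, adjusted p = 0.293) and the cytochrome oxidase copper genes cox17, cox19 and sco1 were not called. In the 2 knockout groups, which are h+ like ntu_WT, ctr4 averaged 351 ± 146 CPM in ntu1_KO and 412 ± 49.3 CPM in ntu2_KO and sod1 averaged 1369.7 ± 268 CPM in ntu1_KO and 1112 ± 165 CPM in ntu2_KO (SD, n = 3 each).

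Iron genes were higher too, with 8 of 20 tested members of the iron and zinc list called higher, 0 lower, and a median of 0.25. The 8 calls fell to 5, 4 and 3 without wt_WT replicate 1, 2 and 3, and to 5, 3 and 2 without ntu_WT replicate 1, 2 and 3. The cell surface ferric reductase gene frp1 had 57.1, 68.3 and 89.2 CPM in wt_WT, against 16.9, 24.4 and 24.4 CPM in ntu_WT, a log2 fold change of 1.69 ± 0.35 (SE; edgeR adjusted p = 0.0216). The multicopper ferroxidase gene fio1 had 63.7, 72.4 and 90.00 CPM in wt_WT, against 40.98, 51.9 and 41.9 CPM in ntu_WT, at 0.74 ± 0.20 (SE; edgeR adjusted p = 0.0482). The siderophore transporter gene str1 had 277, 312 and 349.9 CPM in wt_WT, against 183, 207 and 198 CPM in ntu_WT, at 0.67 ± 0.17 (SE; edgeR adjusted p = 0.0488). These uptake genes spread widely among the wt_WT libraries. Their lowest wt_WT values exceeded the highest of ntu_WT, but 485 of all 486 called genes had such separated values. The separation therefore adds nothing to the calls. Their calls were correspondingly weak: str1 lost its call with any 1 of the 6 libraries left out (adjusted p 0.0675 to 0.154), frp1 and fio1 lost theirs without any ntu_WT library or without wt_WT replicate 2 or 3 (adjusted p up to 0.0743 and 0.166), and fet4, for an iron and zinc transporter called at 0.64 ± 0.18 (edgeR adjusted p = 0.0344), lost its call without any wt_WT library or without ntu_WT replicate 2 or 3 (adjusted p up to 0.187). The mitochondrial iron carrier genes were steadier. The mmt1 gene had 31.7, 33.4 and 33.4 CPM in wt_WT, against 19.98, 20.2 and 20.5 CPM in ntu_WT, a log2 fold change of 0.70 ± 0.11 (SE; edgeR adjusted p = 3.51e-04). The mrs3 gene was at 0.41 ± 0.10 (SE; edgeR adjusted p = 0.0115), a call lost without wt_WT replicate 1 or ntu_WT replicate 3 (adjusted p up to 0.0697).

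Ferrichrome synthesis genes sib1 and sib2 were higher by 0.31 ± 0.06 and 0.42 ± 0.11 on the log2 scale (edgeR adjusted p = 0.00357 and 0.0169). On log2(TPM + 1) and with thinned depth the sib1 call was lost (adjusted p = 0.0572 and 0.0771). That of sib2 was lost without wt_WT replicate 3 or ntu_WT replicate 2 or 3 (adjusted p up to 0.117). Neither regulator was called, with -0.09 ± 0.06 for the repressor gene fep1 (adjusted p = 0.370) and 0.20 ± 0.08 for php4 (adjusted p = 0.116), whose product represses iron-using genes. Nor were the zinc genes zrt1 (uptake, -0.04), zhf1 (storage in the endoplasmic reticulum, -0.13) and loz1 (repressor, -0.12). The metallothionein gene zym1 had 9.31, 10.2 and 10.05 CPM in wt_WT, against 30.99, 7.83 and 7.68 CPM in ntu_WT, where the high value is that of ntu_WT replicate 1.

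**Figure D5:**
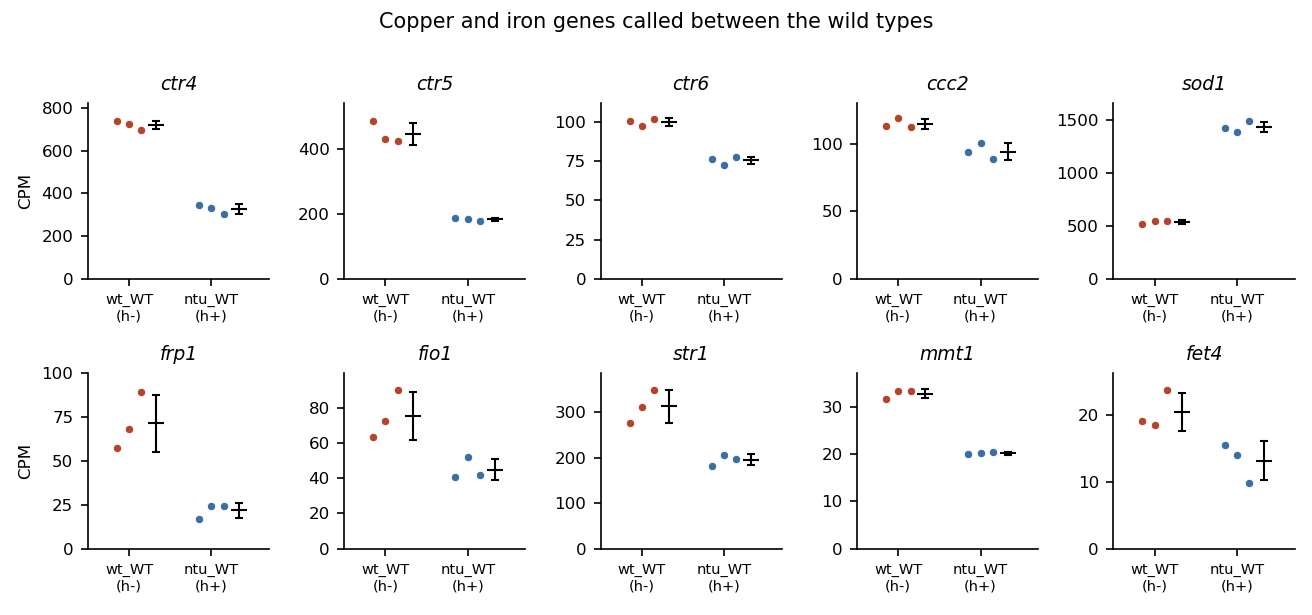
CPM in each library (points), with mean and SD (bars), for 10 copper and iron genes; the axes start at 0. The wt_WT values lie above the ntu_WT values in 9 genes and below them in sod1, a separation found in 485 of all 486 called genes. The spread among wt_WT libraries is widest for frp1, fio1 and str1.

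Sugar genes were called in both directions: of 16 hexose transport and glucose-repressed genes tested, 2 were higher and 3 lower in wt_WT. These are 12.5% and 18.8%, beside 4.05% and 4.19% over all genes. The high-affinity glucose transporter gene ght5 had 67.03, 73.4 and 62.9 CPM in wt_WT, against 193, 174 and 183 CPM in ntu_WT, a log2 fold change of -1.44 ± 0.22 (SE; edgeR adjusted p = 0.00550). In contrast ght8 had 1392, 1379.8 and 1445 CPM in wt_WT, against 1153, 1024 and 1019 CPM in ntu_WT, at 0.40 ± 0.06 (SE; edgeR adjusted p = 3.31e-04). Parts of both genes are repeated elsewhere in the genome (36.2% and 30.8% of stretches of 31 bases), so reads can be split among hexose transporter paralogs. The maltase gene mal1 was also higher, at 0.32 ± 0.09 (SE; edgeR adjusted p = 0.0289), a call lost without any wt_WT library or without ntu_WT replicate 1 or 3 (adjusted p up to 0.146). The hexokinase gene hxk2 had 1096, 1132 and 1118 CPM in wt_WT, against 1418, 1370.0 and 1395 CPM in ntu_WT, a log2 fold change of -0.32 ± 0.06 (SE; edgeR adjusted p = 9.79e-04). The glucose repressor gene scr1 was at -0.50 ± 0.11 (SE; edgeR adjusted p = 0.0102), lost without wt_WT replicate 1 or ntu_WT replicate 2 (adjusted p up to 0.0569). Of 17 glycolysis genes tested, 5 were lower and 0 higher, with a median of -0.14. The triosephosphate isomerase gene tpi1 had 3401, 3642 and 3629 CPM in wt_WT, against 4470.0, 4551 and 4534 CPM in ntu_WT, a log2 fold change of -0.34 ± 0.05 (SE; edgeR adjusted p = 1.31e-04). For the phosphoglycerate mutase gene gpm1 it was -0.27 ± 0.06 (SE; edgeR adjusted p = 0.00543) and for the pyruvate kinase gene pyk1 -0.20 ± 0.05 (SE; edgeR adjusted p = 0.0197). The gpm1 call was lost with a length trend taken out (adjusted p = 0.0577). The pyk1 call was lost with any 1 library left out (adjusted p 0.0528 to 0.0948). Others such as fba1 (-0.10), tdh1 (0.11) and eno101 (0.10) were not called, and the pyruvate decarboxylase gene pdc201, called lower at -1.13 ± 0.31, had 4.70, 5.69 and 5.31 CPM in wt_WT, against 18.1, 9.82 and 6.98 CPM in ntu_WT, with ntu_WT replicate 1 the highest. It was lost without any wt_WT library or without ntu_WT replicate 1 or 2 (adjusted p up to 0.129).

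Nitrogen genes were split, with 4 higher and 4 lower of 25 tested (16.0% each, beside 4.05% and 4.19% over all genes). Glutamate and glutamine sit at the centre of nitrogen metabolism, and the genes around them were called in both directions. The NAD-dependent glutamate dehydrogenase gene gdh2, which releases ammonium, had 217, 238 and 256 CPM in wt_WT, against 133, 131 and 118 CPM in ntu_WT, a log2 fold change of 0.89 ± 0.09 (SE; edgeR adjusted p = 3.09e-05). The glutamine synthetase gene gln1, which fixes ammonium, had 358, 356 and 347 CPM in wt_WT, against 505, 486 and 485 CPM in ntu_WT, a log2 fold change of -0.48 ± 0.06 (SE; edgeR adjusted p = 2.17e-05). Both genes were called under all 18 other settings. Values that did not overlap between groups were a condition of naming them. The NADP-dependent glutamate dehydrogenase gene gdh1, which also fixes ammonium, was higher, at 0.28 ± 0.07 (SE; edgeR adjusted p = 0.0144), a call lost without any library but ntu_WT replicate 1 (adjusted p up to 0.0968). The peptide transporter gene ptr2 had 151 to 164 CPM in wt_WT and 208 to 226 CPM in ntu_WT, at -0.46 ± 0.09 (SE; edgeR adjusted p = 0.00751). The oligopeptide transporter gene isp4 averaged 30.00 ± 2.14 CPM in ntu1_KO and 34.8 ± 5.61 CPM in ntu2_KO, beside 28.6 ± 2.93 CPM in wt_WT and 89.2 ± 6.34 CPM in ntu_WT (SD, n = 3 each), at -1.64 ± 0.10 on the log2 scale between the wild types (edgeR adjusted p = 2.28e-09). Arginine breakdown genes differed in opposite directions, with arginase car1 at 0.38 ± 0.10 and ornithine transaminase car2 at -0.55 ± 0.13, and both calls were lost with any 1 of the 6 libraries left out (adjusted p 0.0563 to 0.109 and adjusted p 0.0557 to 0.115). Ammonium transporter genes amt1, amt2 and amt3 were not called.

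Amino acid synthesis genes were higher in wt_WT by small steps. Of 48 tested, 13 were called higher (27.1%) and 0 lower, and the list median was 0.12, beside 0.00 over all genes. On log2(TPM + 1) 23 were higher, a scale that moved all genes up. Of 9 arginine synthesis genes tested, 5 were among the 13. The argininosuccinate synthase gene arg12 had 734, 775 and 817 CPM in wt_WT, against 626, 605 and 605 CPM in ntu_WT, a log2 fold change of 0.34 ± 0.06 (SE; edgeR adjusted p = 9.55e-04). The acetylornithine aminotransferase gene arg1 had 1032, 1059 and 1069 CPM in wt_WT, against 882, 852 and 841 CPM in ntu_WT, at 0.30 ± 0.05 (SE; edgeR adjusted p = 4.66e-04). For the carbamoyl phosphate synthase gene arg4 and the ornithine carbamoyltransferase gene arg3 the log2 fold changes were 0.29 ± 0.05 and 0.35 ± 0.06 (edgeR adjusted p = 0.00183 and 5.28e-04). The first enzyme of serine synthesis, ser3, had 676, 701 and 709 CPM in wt_WT, against 539, 506 and 487 CPM in ntu_WT, a log2 fold change of 0.45 ± 0.06 (SE; edgeR adjusted p = 3.99e-05). The isopropylmalate synthase gene leu3, the entry to leucine synthesis, had 653, 675 and 657 CPM in wt_WT, against 530.4, 519 and 510.1 CPM in ntu_WT, at 0.35 ± 0.05 (SE; edgeR adjusted p = 6.42e-05). Each of these 6 genes changed by under 1.5-fold. Values that did not overlap between groups were a condition of naming them. The 13 called members spanned 0.18 to 0.45 on the log2 scale. Not called were the 3 tryptophan genes trp1, trp2 and trp3, at 0.12, 0.13 and 0.12, and leu1, at 0.02. The count of 13 fell to 7 without wt_WT replicate 2 or 3 and to 8 without ntu_WT replicate 2, and was 9 or 10 without any other library.

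The GATA-type transcription factor gene fil1, whose product activates amino acid synthesis genes, went the other way, with 402, 375 and 385 CPM in wt_WT, against 581, 542 and 546 CPM in ntu_WT and a log2 fold change of -0.52 ± 0.06 (SE; edgeR adjusted p = 2.61e-05). Methionine and sulfur genes were called higher in 5 of 19 cases and lower in 0. The methionine synthase gene met26 had 6106, 6403 and 6490.5 CPM in wt_WT, against 5325, 5012 and 5058 CPM in ntu_WT, a log2 fold change of 0.30 ± 0.05 (SE; edgeR adjusted p = 6.44e-04). The S-adenosylmethionine synthetase gene sam1 had 1869.8, 1957 and 1985 CPM in wt_WT, against 1502, 1416 and 1406 CPM in ntu_WT, at 0.43 ± 0.08 (SE; edgeR adjusted p = 0.00509). The phosphatidylethanolamine methyltransferase gene cho2, which uses S-adenosylmethionine, was at 0.28 ± 0.05 (SE; edgeR adjusted p = 0.00112), with 353 to 365 CPM in wt_WT and 288 to 306 CPM in ntu_WT. In the knockouts sam1 averaged 2116 ± 282 CPM in ntu1_KO and 2332 ± 228 CPM in ntu2_KO and cho2 averaged 403 ± 23.4 CPM in ntu1_KO and 396 ± 0.824 CPM in ntu2_KO (SD, n = 3 each), above the ntu_WT values as well. The cystathionine gamma-synthase gene met3 and the sulfate assimilation genes met14 and sua1 were not called, at 0.03, 0.02 and 0.01. Aminoacyl-tRNA ligase genes drs1, yrs1, frs1 and msw1 were higher by 0.23 ± 0.05, 0.23 ± 0.05, 0.21 ± 0.06 and 0.38 ± 0.10, and the other 28 of 32 were not called. With 1 library left out, drs1 kept its call, while yrs1 lost it without replicate 2 or 3 of either group, frs1 without any library but ntu_WT replicate 1 and msw1 without wt_WT replicate 1 or 3 or ntu_WT replicate 3 (adjusted p up to 0.0783, 0.163 and 0.118).

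Uracil-responsive genes stood out among the higher ones. The urg1, urg2 and urg3 genes are neighbours on chromosome I and are known to be induced by uracil. The urg1 gene, for a GTP cyclohydrolase, had 147, 137 and 161 CPM in wt_WT, against 51.1, 50.3 and 43.3 CPM in ntu_WT, a log2 fold change of 1.62 ± 0.13 (SE; edgeR adjusted p = 1.01e-05). The urg2 gene, for a uracil phosphoribosyltransferase, had 227, 227 and 240.4 CPM in wt_WT, against 92.8, 77.3 and 65.5 CPM in ntu_WT, at 1.57 ± 0.17 (SE; edgeR adjusted p = 6.63e-04). The urg3 gene had 192, 183 and 185 CPM in wt_WT, against 120.2, 116 and 108 CPM in ntu_WT, at 0.71 ± 0.08 (SE; edgeR adjusted p = 2.39e-05). No setting tried removed a call of these 3 genes. Values that did not overlap between groups were a condition of naming them. The salvage genes uck2 and urk1 were higher as well, at 0.58 ± 0.10 (SE; edgeR adjusted p = 0.00115) for uck2 and 0.29 ± 0.06 (SE; edgeR adjusted p = 0.00755) for urk1, of which urk1 lost its call without wt_WT replicate 1 (adjusted p = 0.0580). By contrast, the genes of de novo pyrimidine synthesis ura1, ura2, ura3 and ura5 were not called, at 0.10, -0.08, -0.03 and -0.10, and neither was the uracil permease gene fur4, at -0.15. In the knockouts, which carry the same ura4-D18 marker, urg1 averaged 81.9 ± 17.7 CPM in ntu1_KO and 59.6 ± 6.19 CPM in ntu2_KO and urg2 averaged 163 ± 35.2 CPM in ntu1_KO and 157 ± 21.7 CPM in ntu2_KO (SD, n = 3 each).

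Transporter genes as a whole were called in both directions, 24 higher and 19 lower of 195 tested (12.3% and 9.74%, beside 4.05% and 4.19% over all genes), of which 3 and 3 reached 2-fold. Beside those already given, the carboxylic acid transporter gene SPAC11D3.18c had 26.6, 27.1 and 31.7 CPM in wt_WT, against 13.4, 13.4 and 15.2 CPM in ntu_WT, a log2 fold change of 1.02 ± 0.13 (SE; edgeR adjusted p = 3.99e-05). The amino acid permease gene SPAC1039.01 had 84.4, 88.4 and 95.7 CPM in wt_WT, against 57.7, 51.9 and 45.2 CPM in ntu_WT, at 0.80 ± 0.11 (SE; edgeR adjusted p = 1.12e-04). The thiamine transporter gene SPCC794.03 was at 0.71 ± 0.16 (SE; edgeR adjusted p = 0.00865), a call lost without wt_WT replicate 3 (adjusted p = 0.0622). Among the lower ones the inositol transporter gene itr2 had 316, 315 and 319 CPM in wt_WT, against 448, 401 and 397 CPM in ntu_WT, at -0.39 ± 0.05 (SE; edgeR adjusted p = 7.48e-05), and the sulfate transporter gene sul2 had 41.2 to 62.9 CPM in wt_WT and 84.7 to 92.5 CPM in ntu_WT, at -0.80 ± 0.18 (SE; edgeR adjusted p = 0.0248). The itr2 gene was called under all 18 other settings, whereas sul2 lost its call without ntu_WT replicate 1, 2 or 3 or wt_WT replicate 1 or 2 (adjusted p up to 0.0884). The 24 higher calls fell to 15 without wt_WT replicate 2 and to 14 without ntu_WT replicate 2.

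Oxidant defence genes were called lower in 5 of 19 cases (26.3%, beside 4.19% over all genes), sod1 included. The thioredoxin system made up 3 of them: trx1, tpx1 and trr1 were at -0.33 ± 0.08, -0.23 ± 0.06 and -0.18 ± 0.05 (edgeR adjusted p = 0.0124, 0.0144 and 0.0356). Each lost its call without some library, trx1 without wt_WT replicate 2 or 3 or ntu_WT replicate 3 (adjusted p up to 0.0639), tpx1 without wt_WT replicate 1 or 3 or ntu_WT replicate 1 (up to 0.0813) and trr1 without any wt_WT library or ntu_WT replicate 1 or 3 (up to 0.126). The nitric oxide dioxygenase gene yhb1 was at -0.88 ± 0.06 (SE; edgeR adjusted p = 1.04e-08). The mitochondrial superoxide dismutase gene sod2 (0.00), the catalase gene ctt1 (0.29) and the regulators pap1 (0.05) and prr1 (0.07) were not called. Without ntu_WT replicate 1, ctt1 was called higher (adjusted p = 0.00124).

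Histone genes were called lower in 6 of 11 cases, with a median of -0.18, but this count was tied to the unit. The histone H4 gene hhf3 had 299, 301 and 315 CPM in wt_WT, against 368, 394 and 392 CPM in ntu_WT, a log2 fold change of -0.34 ± 0.05 (SE; edgeR adjusted p = 3.73e-04). On log2(TPM + 1) 0 histone genes were called, and with a trend of fold change on gene length taken out only 1 was. Short genes in general lay lower in wt_WT: the median log2 fold change was -0.10 in the shortest 20% of protein-coding genes (median length 846 bases) and 0.03 in the longest 20% (3603 bases), and protein-coding genes called higher had a median length of 2018 bases, against 1460 bases in those called lower. Without wt_WT replicate 2, 3 histone genes were called. Cytosolic ribosomal protein genes were called in 8 of 131 cases (6.11%, beside 8.24% over all genes), 3 higher and 5 lower, with a median of -0.09. Log2 fold changes were below 0 in 104 and above 0 in 27 of the 131. Values lay lower in wt_WT without overlap in 61 and higher in 12. Over all genes tested, 17.3% lay lower and 18.0% higher without overlap.

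Of 930 long non-coding RNAs tested, 47 were higher in wt_WT (5.05%, beside 4.05% over all genes) and 17 lower (1.83%, beside 4.19%). Called in all were 6.88%, under the 8.24% of all genes, and at 2-fold or more 17 were higher and 5 lower. Their median log2 fold change was 0.12. On log2(TPM + 1) 9 were called lower. The 47 higher calls fell to 23, 22 and 23 without wt_WT replicate 1, 2 and 3 and to 26 and 28 without ntu_WT replicate 2 and 3. The 17 lower calls fell to 11, 8 and 9 and to 8 and 11 in the same 5 cases. With depth thinned to the smallest library 24 were higher and 8 lower. Among RNAs named as antisense to a gene, 24 of 462 tested were higher and 8 lower. The RNA antisense to prp22, a spliceosomal helicase gene, had 24.4, 25.3 and 20.6 CPM in wt_WT, against 7.62, 5.71 and 6.001 CPM in ntu_WT, a log2 fold change of 1.87 ± 0.17 (SE; edgeR adjusted p = 2.87e-07), while prp22 itself was at -0.05 ± 0.07. The RNA antisense to shk2, a kinase gene, had 47.4, 47.8 and 48.2 CPM in wt_WT, against 29.5, 27.9 and 26.1 CPM in ntu_WT, at 0.78 ± 0.10 (SE; edgeR adjusted p = 2.98e-05), with shk2 at 0.16 ± 0.24. Both antisense RNAs were called under all 18 other settings.

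Pairs in which the antisense RNA and its partner were both called were few. In 330 pairs with both members tested, 22 antisense RNAs were called, and their partners were called in 4 pairs. In these 4 the 2 members differed in opposite directions, while the partners of the 22 split evenly by sign, 11 the same and 11 opposite. The 4 partners are SPAC11D3.18c and SPAC11D3.15, which share a stretch of chromosome I, abc3 and SPAC27F1.05c. The RNA antisense to SPAC11D3.18c had 5.29, 5.34 and 2.41 CPM in wt_WT, against 10.8, 14.2 and 10.5 CPM in ntu_WT, at -1.45 ± 0.25 (SE; edgeR adjusted p = 7.82e-04). The RNA antisense to SPAC11D3.15, a 5-oxoprolinase gene, had 11.6, 10.8 and 14.7 CPM in wt_WT, against 4.57, 3.58 and 5.58 CPM in ntu_WT, at 1.43 ± 0.25 (SE; edgeR adjusted p = 0.00117). SPAC11D3.15 itself was at -0.63 ± 0.16 (SE; edgeR adjusted p = 0.0389), a call lost without any wt_WT library or ntu_WT replicate 1 or 2 (adjusted p up to 0.129). The other 2 pairs differed less, at -0.70 and 0.31 for abc3 and 0.55 and -0.67 for SPAC27F1.05c, the antisense RNA first. In each of these 2 pairs at least 1 member lost its call without any 1 of the 6 libraries other than ntu_WT replicate 1 in SPAC27F1.05c (adjusted p up to 0.188 for abc3, 0.118 for its antisense RNA, 0.0513 for SPAC27F1.05c and 0.121 for its antisense RNA).

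A pair of loci show the same opposition without such names. The non-coding RNA SPNCRNA.1626 had 100.2, 109 and 103 CPM in wt_WT, against 32.7, 33.4 and 34.2 CPM in ntu_WT, a log2 fold change of 1.64 ± 0.09 (SE; edgeR adjusted p = 6.15e-10). It overlaps 2 genes on the opposite strand, and both were lower in wt_WT. The uncharacterized SPBP8B7.32 had 142, 146 and 153 CPM in wt_WT, against 228, 232 and 239 CPM in ntu_WT, at -0.67 ± 0.06 (SE; edgeR adjusted p = 8.11e-07). The MADS-box factor gene mbx2, an activator of flocculation genes, had 20.2, 24.3 and 25.8 CPM in wt_WT, against 30.5, 32.9 and 30.3 CPM in ntu_WT, at -0.42 ± 0.11 (SE; edgeR adjusted p = 0.0254), a call lost without wt_WT replicate 1 or 2 or ntu_WT replicate 2 or 3 (adjusted p up to 0.138). The second locus is ctr5, whose opposite strand holds SPNCRNA.923, with 0.0854, 0.690 and 0.581 CPM in wt_WT, against 3.22, 5.04 and 3.49 CPM in ntu_WT. It was lower in wt_WT, while ctr5 was higher. These 2 loci were picked out after their values were seen.

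Among changes of under 2-fold, the lower gene with the smallest adjusted p was yhb1, followed by esc1, for a helix-loop-helix factor linked to sexual differentiation, with 112, 113 and 115 CPM in wt_WT, against 185, 190.3 and 191 CPM in ntu_WT and a log2 fold change of -0.73 ± 0.05 (SE; edgeR adjusted p = 1.11e-08). The fatty acid elongase gene elo2 had 185, 195 and 199 CPM in wt_WT, against 318, 303 and 318 CPM in ntu_WT, at -0.70 ± 0.07 (SE; edgeR adjusted p = 7.13e-07). On the higher side the dehydrogenase gene SPAC521.03 had 289, 279 and 284 CPM in wt_WT, against 153, 169.8 and 155 CPM in ntu_WT, at 0.83 ± 0.06 (SE; edgeR adjusted p = 2.94e-08). The NADP-dependent isocitrate dehydrogenase gene idp1 had 452, 493 and 501 CPM in wt_WT, against 313, 331 and 329.9 CPM in ntu_WT, at 0.57 ± 0.06 (SE; edgeR adjusted p = 1.01e-05). The urease accessory gene ure7 was at 0.49 ± 0.06 (SE; edgeR adjusted p = 3.59e-05) and the aromatic aminotransferase gene SPAC56E4.03 at 0.41 ± 0.05 (SE; edgeR adjusted p = 3.57e-05).

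In the knockouts, which share ntu_WT's mating type, levels of several of these genes were close to those of 1 of the wild types. For esc1 the means were 184 ± 6.08 CPM in ntu1_KO and 194 ± 11.1 CPM in ntu2_KO, beside 113 ± 1.32 CPM in wt_WT and 189 ± 3.31 CPM in ntu_WT. For elo2 they were 311 ± 25.5 CPM in ntu1_KO and 357 ± 32.1 CPM in ntu2_KO, beside 193 ± 7.49 CPM in wt_WT and 313 ± 8.79 CPM in ntu_WT. For SPBP8B7.32 they were 144 ± 14.5 CPM in ntu1_KO and 117 ± 8.11 CPM in ntu2_KO, beside 147 ± 5.49 CPM in wt_WT and 233 ± 5.38 CPM in ntu_WT (SD, n = 3 in each group). The knockouts thus resembled ntu_WT in esc1 and elo2 and wt_WT in SPBP8B7.32; since the same 3 ntu_WT libraries are the control of the knockouts, these values are given side by side and were not tested as a relation.

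The remaining lists differed in their share of calls, beside 8.24% over all genes. Of 23 wtf genes (spore killer genes) 0 were called, although 20 had a log2 fold change above 0 and 3 below, with a median of 0.37. Values lay higher in wt_WT without overlap in 9 of them and lower in 0, beside 18.0% and 17.3% over all genes. Of 20 heat shock and chaperone genes 1, wos2, was lower, at -0.33 ± 0.07 (SE; edgeR adjusted p = 0.00346). Of 9 Tf2 retrotransposon genes 1, Tf2-7, was higher, at 0.57 ± 0.07, a gene with no sequence of its own, since every stretch of 31 bases in it is repeated elsewhere. The median over the 9 Tf2 genes was 0.91, with 8 above 0 and 1 below. Near the ends of chromosomes I and II (within 100 kb), 18 of 92 genes were called (19.6%), 8 higher and 10 lower, of which 5 and 6 reached 2-fold. Among 20 cell surface glycoprotein genes 1 was higher and 5 lower (30.0% called), including knh2, for a cell wall protein, at -0.45 ± 0.08 (SE; edgeR adjusted p = 0.00217), and aah1, for a GPI-anchored enzyme, at -0.39 ± 0.06 (SE; edgeR adjusted p = 2.86e-04).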

How the data were processed

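The authors deposited 1 table of estimated counts and 1 table of TPM (a length-scaled relative abundance) per gene for the 12 libraries. Salmon 1.9.0 and the genome build ASM294v2 are named per the submitters' processing notes, and the library kit and growth conditions per the labels' protocols. The deposited estimated counts are not whole in 91.2% of non-zero values and were rounded, which changed library totals by at most 0.0027%. The deposited TPM values were used in 1 alternative only. No column was left unmapped (0).

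Genes passing filterByExpr (minimum count 10) were fitted with edgeR 4.0.16 (R 4.3.3; TMM factors, quasi-likelihood test) over all 12 libraries in 4 groups, and wt_WT was contrasted with ntu_WT. Benjamini-Hochberg adjustment ran over all genes tested, and a gene was called at an adjusted p under 0.05. The standard error is the size of the log2 fold change divided by the square root of F. CPM used the TMM-scaled totals. Gene names, products and distances came from the RefSeq annotation of ASM294v3, in which 6743 of 6936 genes matched (6727 by locus tag, 16 by synonym).

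The members and lists were chosen with earlier results of these data known, and several lists (copper, iron and zinc, amino acid synthesis, glycolysis, V-ATPase and tRNA ligase among them) were added after values were seen. A rule named 211 genes: the genotype markers, all mating and phosphate genes, up to 4 members per direction of each other list by adjusted p, the largest changes, and the smallest adjusted p among changes of under 2-fold. In that rule, list members and largest changes had to be called, with all wt_WT libraries above or all below the ntu_WT libraries. Separated values in these genes therefore follow from how they were chosen. A further 55 were named after their values were seen. Alternatives were other size factors, other filters, DESeq2 1.42.0, limma 3.58.1 on log2(TPM + 1), a stricter threshold, glmTreat against 1.5-fold, the 6 libraries alone, a replicate block, thinned depth, a length trend and each library left out. Depth was 5998569 to 11782294 counts in the 6 libraries compared. Replicate numbers come from the titles.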

Additional observations from a re-analysis of the deposited data

How the results depend on the processing

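No called gene among those named reversed its direction under any of the 18 settings tried, and 94 of the 185 passed under every one. Among genes not called, some crossed 0, such as zym1 (-0.95 to 0.34 on the log2 scale). Calls lost on log2(TPM + 1) include aps1, asp1, fet4, gal10, gpa1, hhf3, mal1, mbx2, msw1, pdc201, ptr2, pyk1, rga7, rgs1, rse1, scr1, ste6, tgp1, tpx1, trr1 and vtc2. Calls lost with thinned depth include aps1, asp1, cao1, car1, car2, ccc2, fet4, fio1, frp1, frs1, gal10, mal1, mbx2, nam1, rse1, SPNCRNA.923, ste6, str1, sul2, tgp1 and urk1. The count of 486 became 207 at an adjusted p under 0.01 and 310 with depth thinned to the smallest library, and 1036 with the 6 libraries compared fitted alone. With other size factors, filters or DESeq2 it lay between 486 and 498. The 61 genes at 2-fold became 38 at an adjusted p under 0.01 and 27 with glmTreat against 1.5-fold. On log2(TPM + 1), lower calls were 3 in the shared mating list, 0 in histones, 10 in transporters and 9 in long non-coding RNA, and amino acid synthesis had 23 higher. At an adjusted p under 0.01, higher calls were 2 in copper, 2 in iron and zinc, 13 in transporters, 19 in long non-coding RNA (8 lower) and 8 in amino acid synthesis. With the 6 libraries alone, transporters had 31 lower, long non-coding RNA 90 higher and 30 lower, and amino acid synthesis 23 higher. Thinned depth left 3 copper, 3 iron and zinc and 24 long non-coding RNA genes higher and 8 long non-coding RNA genes lower. Taking out a length trend, a setting chosen after seeing the data, left 1 histone gene lower. The cause of these differences was not tested.

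With 1 library left out the totals ranged from 227 to 433 genes and from 42 to 52 at 2-fold. Mating calls were 3 in the M-cell list and 3 in the P-cell list each time, and 3 to 6 lower in the shared list. Lower calls were 9 to 11 in phosphate, 3 to 6 in histones, 13 to 17 in transporters and 8 to 13 in long non-coding RNA. Higher calls were 3 to 4 in copper, 2 to 5 in iron and zinc, 14 to 20 in transporters, 22 to 34 in long non-coding RNA and 7 to 10 in amino acid synthesis. A replicate block gave 530 genes in place of 486 and 5 iron and zinc genes in place of 8. Deviations of same-numbered libraries correlated at -0.0252, 0.0357 and -0.0212, and not every library correlated best with its own number. With 3 libraries per group these values cannot decide whether the numbers pair the samples. The shallower ntu_WT libraries limit the precision of low genes.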
